A study of Homo sapiens with 12 samples.

Results

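Glycolysis turns glucose into pyruvate in the cytosol, and lactate dehydrogenase and the monocarboxylate transporters dispose of pyruvate as lactate. Its genes overlap with those that cells switch on when oxygen falls: the prolyl hydroxylases EGLN1 and EGLN3 mark HIF-1alpha, the product of HIF1A, for degradation, and HIF-1alpha that escapes them binds hypoxia response elements at genes of glucose uptake, glycolysis, pyruvate dehydrogenase inhibition, angiogenesis and mitophagy. Growth factor signalling through PI3K, mTOR and MYC can act on many of the same genes in breast epithelium without a change in oxygen. A set of 38 such genes was described here over 4 treatment groups. Members were the genes with these symbols in the array's probe annotation, each read by the single-gene probe set with the highest mean over 12 arrays. Of the 38, 35 were measured among 18417 genes: 16 of 17 glycolytic enzymes, 5 of 5 regulators of glycolysis and pyruvate oxidation, 2 of 4 transporters and 12 of 12 hypoxia genes. The probe annotation used here held no probe set under SLC16A1 or SLC16A3, the monocarboxylate transporters, and PGAM1 was named only together with PGAM4.

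The cells were MCF10A, a non-tumorigenic human breast epithelial line, stably carrying a chimeric full-length human HER2 with FKBP and HA tags, which all 4 groups share. The labels do not say whether the transfected cells were 1 clone or what drives the transgene. There were 3 arrays of untreated cells and 3 for each of 3 agents, read 48 hours after the agent was added: AP1510, a bivalent FKBP ligand that brings the tagged HER2 molecules together, TGF-alpha, which binds EGFR, and heregulin, which binds HER3 and HER4. From 24 hours before the agent, the medium held neither serum nor EGF but kept cholera toxin, hydrocortisone and insulin in every group. Insulin itself acts on glucose metabolism. The sources used here do not give the oxygen, the doses, a vehicle or when untreated cells were harvested. Each group was seeded as 3 dishes, and the p-values reflect only how much dishes and their arrays varied.

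Values are log2 intensities after RMA, so 1 unit is a doubling. They ran from 1.75 to 14.2, and arrays correlated at 0.988 to 0.994 within groups and 0.978 to 0.993 between groups across probe sets. Basal and epithelial markers were bright on every array, with group means of 7.38 to 12.6 for 5 basal genes such as KRT5 and 8.14 to 12.3 for CDH1, EPCAM and KRT18. The defining leukocyte gene PTPRC had group means of at most 3.01, the fibroblast gene LUM of at most 2.78 (the other 3 fibroblast genes, COL1A1, COL1A2 and PDGFRB, had 4.80 to 6.86), and ESR1 and PGR, of hormone receptor-positive cells, of at most 4.54. CD68 and PECAM1, on the leukocyte and endothelial lists, were bright in all groups, with means of 7.11 to 8.07 and 8.21 to 8.67. The other endothelial genes were dimmer, VWF with group means of at most 4.17 and CDH5 with 4.72 to 5.67. The remaining leukocyte gene, CD3E, had group means of at most 4.49. The ERBB2 probe set, which may read the cell's own gene and the chimera together, had group means of 10.9 to 11.5, the highest with TGF-alpha, and says nothing of receptor dimers. Other markers moved too. Group means with TGF-alpha and in untreated cells were 12.6 and 11.5 for KRT5, 12.3 and 11.4 for KRT18, 10.7 and 9.94 for ITGB4, 10.1 and 9.23 for EPCAM, and 7.11 and 7.91 for CD68. EPCAM was lowest with heregulin, at 8.14. The part of such shifts in the members' changes was not tested. Lower RNA per cell and fewer cells making an RNA cannot be told apart in such bulk samples.

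To show what the promoters of moving and unmoving members look like, the 250 bases upstream of the start were taken from RefSeq (GRCh38.p14) for 4 members that rose about 2-fold or more with TGF-alpha, for PGK1, which was not called in any comparison, and for SLC2A1, which fell. All 6 have a single start in that table. PFKP and PDK1, which also rose by 2-fold or more, have more than 1 start and were not printed. Capitals mark ACGTG or GCGTG on either strand (read as CACGT or CACGC on the opposite strand), the core letters of a hypoxia response element. The E-box CACGTG, which MYC and other factors can bind, holds ACGTG on both strands and is counted as 2 matches.
BNIP3 (chr10:131981924-131982173, minus strand): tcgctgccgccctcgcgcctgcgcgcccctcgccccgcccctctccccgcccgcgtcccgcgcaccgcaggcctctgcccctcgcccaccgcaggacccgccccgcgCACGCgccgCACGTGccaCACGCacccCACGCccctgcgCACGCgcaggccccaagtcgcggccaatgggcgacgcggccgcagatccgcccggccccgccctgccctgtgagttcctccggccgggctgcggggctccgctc
ALDOC (chr17:28576896-28577145, minus strand): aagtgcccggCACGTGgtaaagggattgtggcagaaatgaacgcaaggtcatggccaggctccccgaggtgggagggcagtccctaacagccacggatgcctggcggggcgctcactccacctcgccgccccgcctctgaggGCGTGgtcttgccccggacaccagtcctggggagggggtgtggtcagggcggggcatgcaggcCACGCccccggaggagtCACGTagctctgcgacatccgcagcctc
P4HA1 (chr10:73096867-73097116, minus strand): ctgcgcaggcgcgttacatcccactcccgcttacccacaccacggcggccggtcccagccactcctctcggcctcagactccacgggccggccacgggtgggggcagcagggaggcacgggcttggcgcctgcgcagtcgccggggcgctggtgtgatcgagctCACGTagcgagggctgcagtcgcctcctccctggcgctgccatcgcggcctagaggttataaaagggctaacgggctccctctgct
ANGPTL4 (chr19:8363905-8364154, plus strand): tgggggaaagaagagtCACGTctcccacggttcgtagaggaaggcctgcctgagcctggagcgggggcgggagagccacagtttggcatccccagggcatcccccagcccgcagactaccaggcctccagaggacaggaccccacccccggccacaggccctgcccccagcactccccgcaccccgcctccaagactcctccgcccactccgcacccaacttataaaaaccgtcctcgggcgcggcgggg
PGK1 (chrX:78103998-78104247, plus strand): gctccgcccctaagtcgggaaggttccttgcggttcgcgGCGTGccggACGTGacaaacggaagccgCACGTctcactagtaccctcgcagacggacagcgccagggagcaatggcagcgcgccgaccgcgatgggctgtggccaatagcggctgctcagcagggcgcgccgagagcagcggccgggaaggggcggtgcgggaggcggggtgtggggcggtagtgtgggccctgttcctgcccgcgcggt
SLC2A1 (chr1:42958869-42959118, minus strand): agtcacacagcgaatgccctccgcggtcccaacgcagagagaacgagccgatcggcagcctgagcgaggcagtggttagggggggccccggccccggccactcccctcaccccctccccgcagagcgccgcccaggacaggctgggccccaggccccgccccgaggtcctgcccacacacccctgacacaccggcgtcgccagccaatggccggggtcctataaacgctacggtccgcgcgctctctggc

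The BNIP3 window held 6 such matches between positions -143 and -104, counted from the start, and ALDOC held 5. P4HA1 and ANGPTL4 held 1 each, PGK1 held 3 and SLC2A1 held none. Both BNIP3 and ALDOC had 1 CACGTG. The table held windows for 32 of the 38 members, 21 of them with a single start, and 15 of those 21 windows held ACGTG or GCGTG, against 42.2% of genes with a single start over the whole table. Among the measured members with a single start, matches were present in 5 of the 7 that rose with TGF-alpha (the 4 printed and PFKFB4) and in 10 of the 12 that were not called, including PGK1, GAPDH, ENO1 and ANKRD37. LDHB and P4HA2, which rose and were not printed, held no match. The presence of these letters did not separate the members that rose from those that were not called. A match is a description of letters and not of a bound site, and no match says only that the letters are not in this window.

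Over the 4 groups, 21 of the 35 members differed by limma's moderated F test (adjusted p under 0.05), against 28.5% of all genes. TGF-alpha accounted for most calls: 13 members rose and 3 fell against untreated, where 26% of all genes were called (12.5% higher and 13.4% lower). With heregulin 2 rose and 2 fell, where 8.5% of all genes were called (3.45% higher and 5.06% lower). With AP1510 none of the 35 passed, where 1.47% of all genes did (0.771% higher and 0.7% lower). With AP1510, limma gave an unadjusted p under 0.05 for 11 of the 35 members (31.4%), beside 11.1% of all genes. The median log2 change of the 35 members was 0.12 with TGF-alpha, 0.02 with heregulin and 0.01 with AP1510, beside -0.01, 0.01 and -0.01 over all genes. The 3 comparisons share the untreated arrays. With genes of a mean log2 intensity under 5 left out, 33 members remained. The F test then called 22 of them, beside 43.1% of genes. Against untreated, 17 were then called with TGF-alpha (39.2% of genes), 6 with heregulin (13.5%) and 1 with AP1510 (2.72%). TGF-alpha had the highest of the 4 group means for 24 of the 35 members, beside 29.9% of all genes. Direct contrasts placed 10 members above each of the other 3 groups in TGF-alpha (PFKP, ALDOC, TPI1, LDHB, PFKFB4, PDK1, ANGPTL4, BNIP3, P4HA1 and VEGFA), where 7.49% of all genes were so placed. None stood below all 3 others in TGF-alpha, where 5.97% of all genes did.

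**Figure D1:**
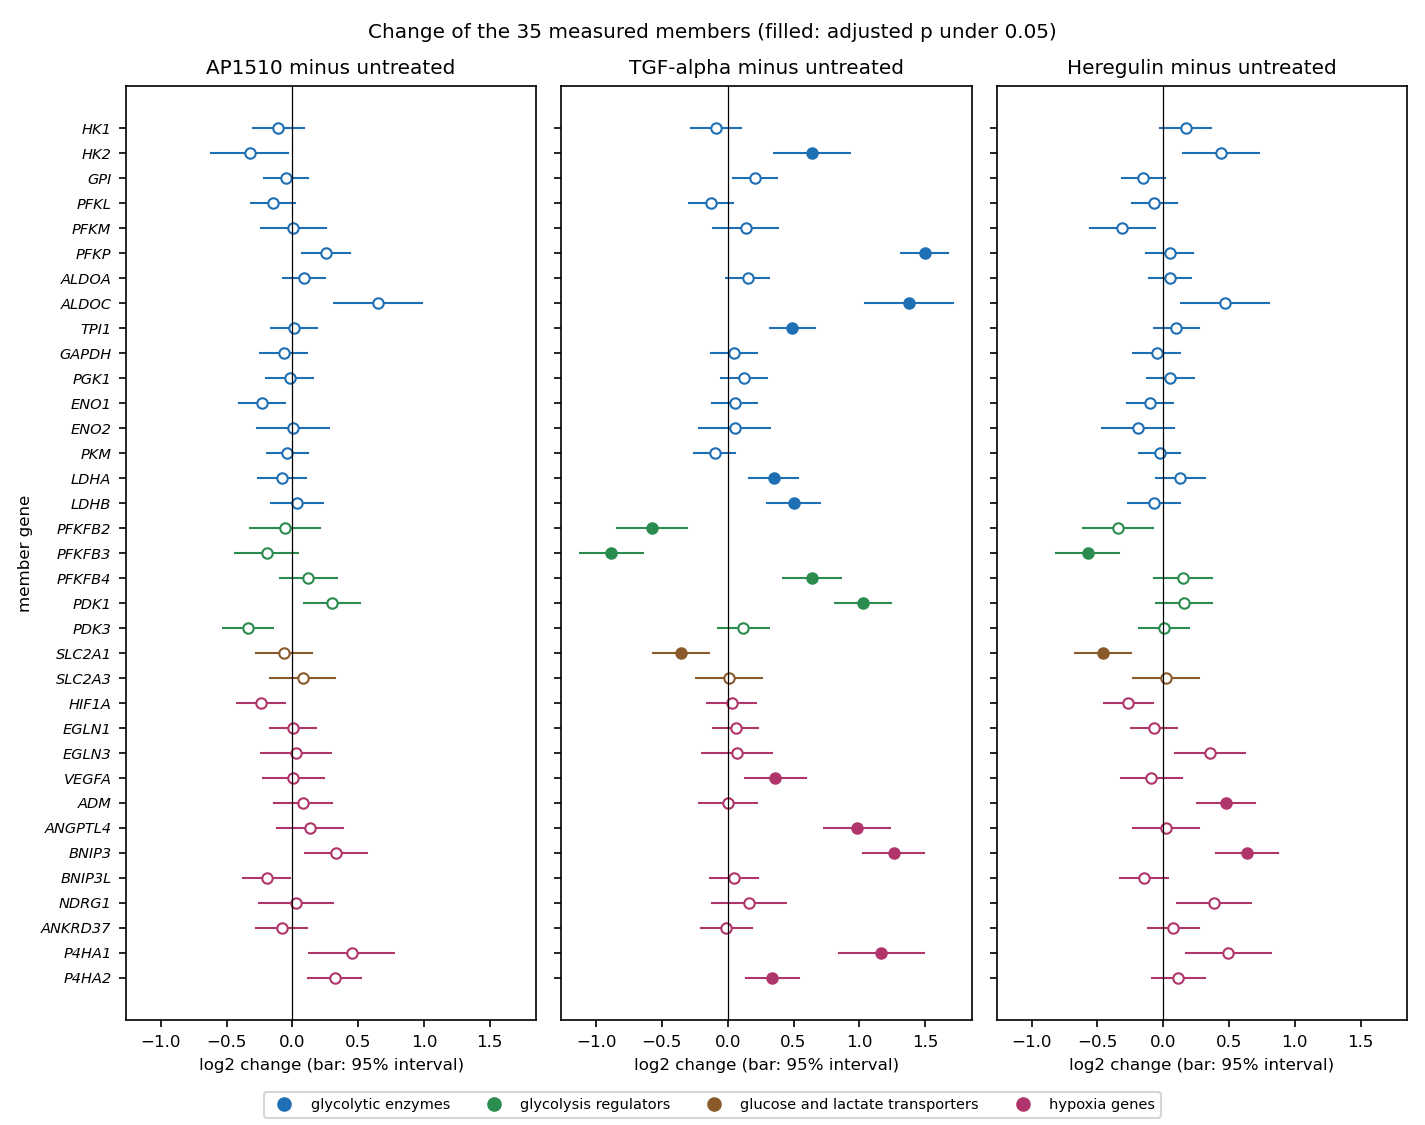
Log2 change against untreated (x axis) of each of the 35 measured members (y axis), in 3 panels for AP1510, TGF-alpha and heregulin, with 95% intervals from the fit (3 arrays per group). Filled points passed an adjusted p of 0.05: 0 with AP1510, 16 with TGF-alpha and 4 with heregulin.

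Of the 16 glycolytic enzymes measured with TGF-alpha, 6 rose (HK2, PFKP, ALDOC, TPI1, LDHA and LDHB), 0 fell and 10 did not pass. That was 37.5% called, beside 26% of all genes (12.5% higher and 13.4% lower). With genes of a mean log2 intensity under 5 left out, 39.2% of genes were called, so the enzymes' share was no larger. The enzymes' log2 changes lay between -0.13 and 1.5. Their median log2 change was 0.14. PFKP encodes the platelet form of phosphofructokinase, the enzyme of the committed step. Its probe set 7925876 read 9.15, 9.13 and 9.14 with TGF-alpha. The other arrays read 7.59, 7.77 and 7.58 in untreated cells, 7.97, 7.87 and 7.86 with AP1510 and 7.70, 7.60 and 7.78 with heregulin. The TGF-alpha arrays stood above all 9 others, with an SD of 0.0078 (n = 3). PFKP rose 2.82-fold (log2 change 1.5 ± 0.08 SE, adjusted p = 3.6e-09 in limma), and TGF-alpha lay 2.36-fold above AP1510 (adjusted p = 4.6e-08) and 2.73-fold above heregulin (adjusted p = 5.2e-09).

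ALDOC, the aldolase C gene, rose next most among the enzymes. Probe set 8013660 read 6.63, 7.01 and 6.76 in untreated cells and 8.36, 8.25 and 7.93 with TGF-alpha. It read 7.26, 7.67 and 7.44 with AP1510 and 7.32, 6.94 and 7.56 with heregulin. The AP1510 arrays lay wholly between the untreated and the TGF-alpha arrays, while the heregulin arrays overlapped the untreated ones. ALDOC rose 2.60-fold with TGF-alpha (log2 change 1.38 ± 0.16 SE, adjusted p = 5e-06). Its log2 change with AP1510 was 0.65 ± 0.16 (adjusted p = 0.053) and with heregulin 0.47 ± 0.16 (adjusted p = 0.085), neither past the threshold. Without heregulin replicate 2, these had an adjusted p of 0.022 and 0.018, and without heregulin replicate 3 the AP1510 value had 0.038. TGF-alpha stood 1.65-fold above AP1510 (adjusted p = 0.0029).

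HK2 encodes hexokinase 2, the inducible form that phosphorylates glucose at the mitochondrial surface. Probe set 8042942 read 6.38, 6.80 and 6.46 in untreated cells, 6.55, 5.94 and 6.17 with AP1510, 7.21, 7.27 and 7.08 with TGF-alpha and 6.93, 6.97 and 7.05 with heregulin. Both natural ligands lay above all untreated and AP1510 arrays, and AP1510 replicate 1 overlapped the untreated range. HK2 rose 1.56-fold with TGF-alpha (log2 change 0.64 ± 0.14 SE, adjusted p = 0.002). With heregulin the log2 change was 0.44 ± 0.14 (adjusted p = 0.062), and it passed without untreated replicate 2 (adjusted p = 0.025) or AP1510 replicate 1 or 2 (adjusted p = 0.022 and 0.037). Against AP1510, HK2 was 1.95-fold higher with TGF-alpha (adjusted p = 6.8e-05) and 1.70-fold higher with heregulin (adjusted p = 0.0022). HK2 was the single enzyme called between heregulin and AP1510, where 7.23% of all genes were called. TGF-alpha and heregulin differed by -0.20 ± 0.14 on the log2 scale (heregulin minus TGF-alpha, adjusted p = 0.36, 95% interval -0.49 to 0.09).

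The smaller called rises with TGF-alpha among the measured enzymes were those of TPI1, LDHB and LDHA. TPI1, triose phosphate isomerase, rose 1.40-fold (adjusted p = 2.1e-04), with group means of 10.9 in untreated cells and 11.4 with TGF-alpha. Its dimmer probe set 7953508 changed by 0.42 ± 0.09 on the log2 scale. LDHB and LDHA, the subunits of lactate dehydrogenase, rose 1.42-fold (adjusted p = 6.5e-04) and 1.27-fold (adjusted p = 0.0062). PGAM1 could not be read alone, but the 5 probe sets shared by PGAM4 and PGAM1, 2 of which held the same values, changed by 0.51 to 0.52 with TGF-alpha, by 0.02 to 0.06 with AP1510 and by 0.03 to 0.06 with heregulin. Their adjusted p with TGF-alpha, over all probe sets, was at most 3.1e-04.

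Other enzymes of the trunk of the pathway were not called against untreated by any ligand. GAPDH changed by 0.05 ± 0.08 with TGF-alpha, PGK1 by 0.12 ± 0.08, ENO1 by 0.05 ± 0.08, PKM by -0.10 ± 0.07 and ALDOA by 0.15 ± 0.08. The 95% intervals of these 5 changes ended between 0.06 and 0.31. GAPDH, ENO1 and PKM gave means of 13.5, 12.9 and 12.3 on arrays whose brightest probe set read 14.2, and the part of signal strength in the small size of their changes was not tested. ENO1 nevertheless stood higher with TGF-alpha than with AP1510 (log2 difference 0.28 ± 0.08, adjusted p = 0.02), a call lost without AP1510 replicate 2 or TGF-alpha replicate 2 (adjusted p = 0.094 each). GPI, glucose phosphate isomerase, lay 0.25 ± 0.08 above AP1510 with TGF-alpha (adjusted p = 0.028) and was 0.35 ± 0.08 lower with heregulin than with TGF-alpha (adjusted p = 0.0032). The first of these calls was lost without AP1510 replicate 2 or 3 or TGF-alpha replicate 1 or 2 (adjusted p = 0.057 to 0.11) and after renewed quantile normalization (adjusted p = 0.057). PFKM, the muscle form of phosphofructokinase, was lower with heregulin than with TGF-alpha (log2 difference -0.45 ± 0.12, adjusted p = 0.01), and that call was lost without TGF-alpha replicate 2 or heregulin replicate 2 (adjusted p = 0.056 and 0.05). HK1, PFKL, ENO2, GAPDH, PGK1, PKM and ALDOA were called in none of the 6 comparisons with all 12 arrays. Leaving out 1 array called HK1 between heregulin and TGF-alpha (without AP1510 replicate 1, heregulin replicate 2 or TGF-alpha replicate 2; adjusted p = 0.038 to 0.045) and between heregulin and AP1510 (without AP1510 replicate 1; adjusted p = 0.034). It called ENO2 between heregulin and TGF-alpha (without heregulin replicate 2; adjusted p = 0.027). ENO2 was dim, with a mean of 4.53, at percentile 26.1 of the genes' means.

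The 5 regulators moved in opposite directions with TGF-alpha: 2 rose, 2 fell and 1 did not pass (80% called, beside 26% of all genes). All 5 differed between TGF-alpha and AP1510, where 21.6% of all genes did. The PFKFB enzymes make and remove fructose 2,6-bisphosphate, the activator of phosphofructokinase. PFKFB3, the form with the highest kinase activity, fell. Its probe set 7926037 read 7.44, 7.34 and 7.24 in untreated cells, 6.93, 7.16 and 7.35 with AP1510, 6.51, 6.33 and 6.52 with TGF-alpha and 6.72, 6.64 and 6.92 with heregulin. Every TGF-alpha and heregulin array lay below every untreated and AP1510 array. PFKFB3 fell 1.84-fold with TGF-alpha (log2 change -0.88 ± 0.11 SE, adjusted p = 1.5e-05) and 1.49-fold with heregulin (log2 change -0.57 ± 0.11, adjusted p = 0.0036). It had a log2 change of -0.19 ± 0.11 with AP1510 (adjusted p = 0.58). Heregulin against AP1510 gave -0.38 ± 0.11 (adjusted p = 0.052), which passed without AP1510 replicate 1 (adjusted p = 0.015) or heregulin replicate 3 (adjusted p = 0.035). PFKFB2, another of these enzymes, fell 1.49-fold in TGF-alpha arrays (adjusted p = 0.0023). Its log2 change with heregulin was -0.34 ± 0.13 (adjusted p = 0.12), which passed without untreated replicate 2 (adjusted p = 0.018).

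PFKFB4 went the other way. Probe set 8086961 read 5.46, 5.63 and 5.62 in untreated cells, 5.66, 5.75 and 5.67 with AP1510, 6.20, 6.17 and 6.25 with TGF-alpha and 5.64, 5.55 and 5.97 with heregulin. The TGF-alpha arrays lay above all others, the nearest being heregulin replicate 3. PFKFB4 rose 1.56-fold with TGF-alpha (log2 change 0.64 ± 0.10 SE, adjusted p = 1.6e-04) and stood 1.43-fold above AP1510 (adjusted p = 0.0014) and 1.40-fold above heregulin (adjusted p = 0.0022).

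PDK1 and PDK3 encode pyruvate dehydrogenase kinases, which switch off the entry of pyruvate into the TCA cycle. PDK1, probe set 8046408, read 6.67, 6.65 and 6.31 in untreated cells, 6.91, 6.79 and 6.83 with AP1510, 7.56, 7.64 and 7.52 with TGF-alpha and 6.73, 6.59 and 6.79 with heregulin. The TGF-alpha arrays again lay above all 9 others. PDK1 rose 2.04-fold (log2 change 1.03 ± 0.10 SE, adjusted p = 9.4e-07). PDK3 had another pattern: its mean was 6.14 in untreated cells, 5.81 with AP1510, 6.26 with TGF-alpha and 6.15 with heregulin. All 3 AP1510 arrays lay below the other 9, at 5.84, 5.85 and 5.73. PDK3 was higher with TGF-alpha than with AP1510 by 0.46 ± 0.09 (adjusted p = 0.0013) and higher with heregulin than with AP1510 by 0.34 ± 0.09 (adjusted p = 0.028), while AP1510 against untreated gave -0.34 ± 0.09 (adjusted p = 0.085). The heregulin call was lost without AP1510 replicate 2 or 3 or heregulin replicate 1 or 3 (adjusted p = 0.059 to 0.12), and with arrays centred on their medians or those 2 groups fitted alone (adjusted p up to 0.086).

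Of the transporters, SLC2A1 encodes GLUT1, the main glucose carrier of many epithelial cells, and it moved against most of the enzymes that were called. Its arrays read 9.53, 9.61 and 9.62 in untreated cells, 9.35, 9.57 and 9.64 with AP1510, 9.18, 9.36 and 9.15 with TGF-alpha and 9.08, 9.02 and 9.29 with heregulin. All TGF-alpha and heregulin arrays lay below all untreated arrays, and AP1510 replicate 1 fell among them. SLC2A1 fell 1.37-fold with heregulin (adjusted p = 0.0087) and 1.28-fold with TGF-alpha (adjusted p = 0.014). The TGF-alpha call was lost without TGF-alpha replicate 1 or 3 (adjusted p = 0.054 and 0.066). Heregulin lay below AP1510 by 0.39 ± 0.10 (adjusted p = 0.026), a call lost without AP1510 replicate 2 or 3 or heregulin replicate 1 or 2 (adjusted p = 0.07 to 0.12) and in the fit of those 2 groups alone (adjusted p = 0.096). SLC2A3, which encodes GLUT3, had a mean of 3.39, at percentile 7.97 of the genes' means, and none of its changes passed.

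**Figure D2:**
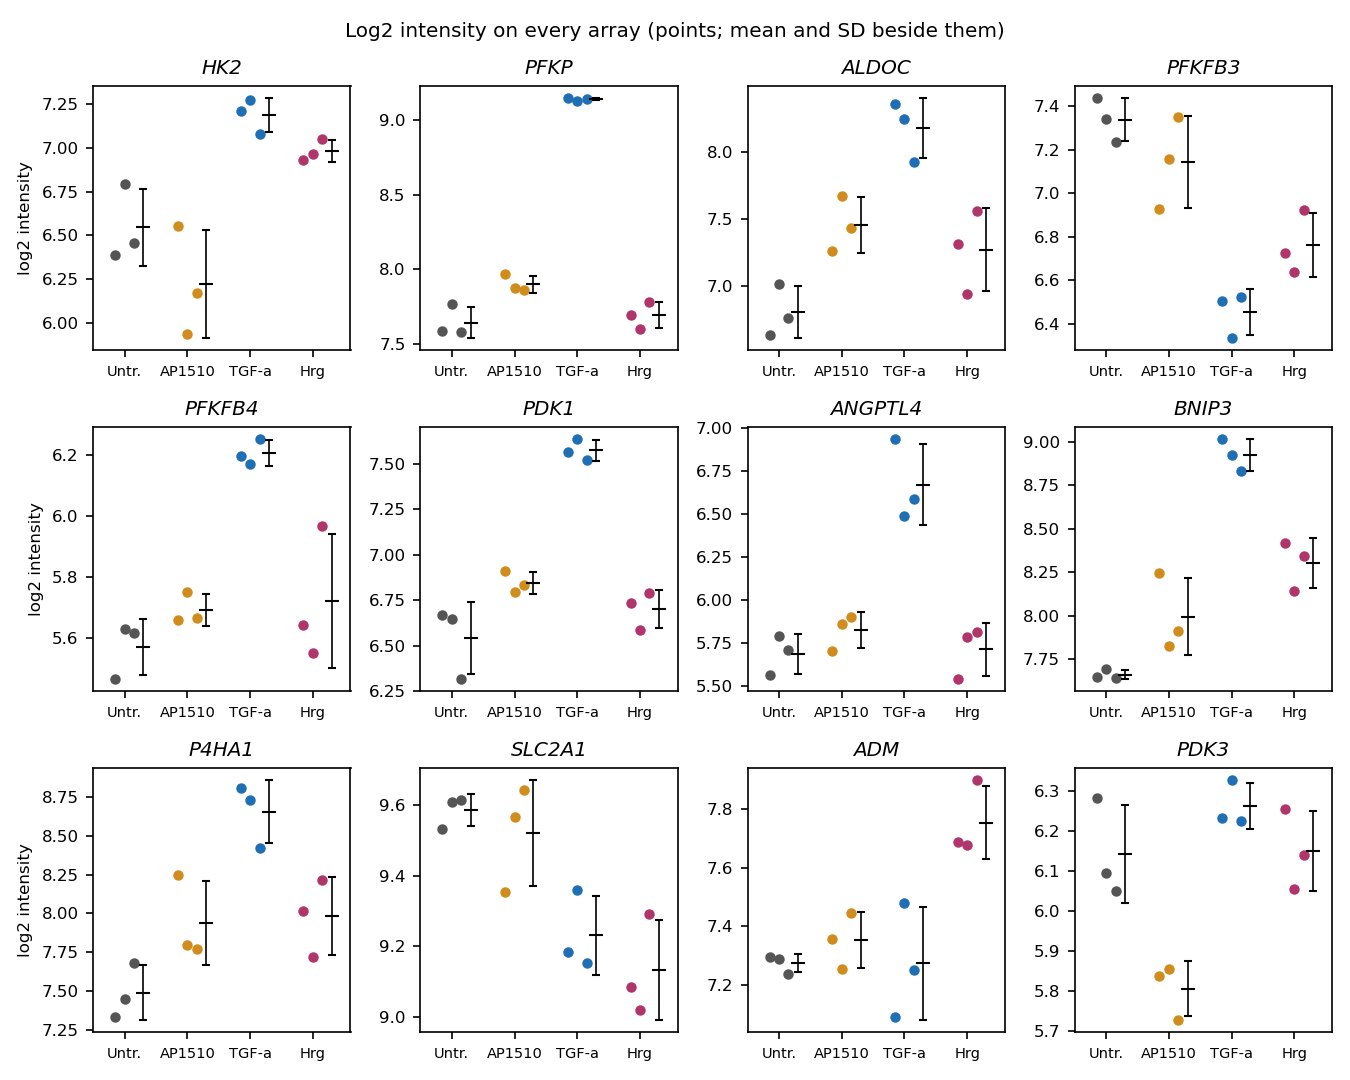
Log2 intensity (y axis) on each of 12 arrays for the 9 members that changed by at least 1.5-fold in a called comparison and for SLC2A1, ADM and PDK3, whose patterns differed from theirs. Points are arrays, bars are the mean and SD of 3, and the x axis gives untreated (Untr.), AP1510, TGF-alpha (TGF-a) and heregulin (Hrg); each panel has its own y range, and in PFKP, PDK1 and PFKFB4 the TGF-alpha points lie above all others.

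Among the 12 hypoxia genes, 5 rose with TGF-alpha (BNIP3, P4HA1, ANGPTL4, VEGFA and P4HA2), 0 fell and 7 did not pass. That was 41.7% called, beside 26% of all genes (12.5% higher and 13.4% lower) and near the 39.2% of genes with a mean of at least 5. With heregulin 2 rose (BNIP3 and ADM), 0 fell and 10 did not pass. That was 16.7% called, beside 8.5% of all genes (3.45% higher and 5.06% lower) and 13.5% of genes with a mean of at least 5. BNIP3, a mitochondrial receptor for mitophagy, was the single member that rose with both natural ligands. Probe set 7937079 read 7.65, 7.69 and 7.64 in untreated cells, 8.25, 7.83 and 7.91 with AP1510, 9.02, 8.92 and 8.83 with TGF-alpha and 8.42, 8.14 and 8.35 with heregulin. No treated array overlapped the untreated ones, and the TGF-alpha arrays lay above all others. BNIP3 rose 2.40-fold with TGF-alpha (log2 change 1.26 ± 0.11 SE, adjusted p = 2.6e-07) and 1.56-fold with heregulin (log2 change 0.64 ± 0.11, adjusted p = 0.0012). With AP1510 the log2 change was 0.33 ± 0.11 (adjusted p = 0.2). TGF-alpha stood 1.54-fold above heregulin (adjusted p = 4.9e-04). Heregulin against AP1510 gave 0.31 ± 0.11 (adjusted p = 0.12), and 0.43 without AP1510 replicate 1, the highest of the AP1510 arrays (adjusted p = 0.019).

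P4HA1 and P4HA2 encode catalytic subunits of collagen prolyl 4-hydroxylase. P4HA1, probe set 7934278, read 7.33, 7.45 and 7.68 in untreated cells, 8.25, 7.80 and 7.77 with AP1510, 8.81, 8.73 and 8.42 with TGF-alpha and 8.01, 7.72 and 8.22 with heregulin. All 9 treated arrays lay above the untreated ones. P4HA1 rose 2.25-fold with TGF-alpha (log2 change 1.17 ± 0.15 SE, adjusted p = 1.9e-05). The log2 changes with heregulin and AP1510 were 0.50 ± 0.15 (adjusted p = 0.056) and 0.45 ± 0.15 (adjusted p = 0.21). The heregulin value passed without heregulin replicate 2 (adjusted p = 0.023) or AP1510 replicate 1 (adjusted p = 0.03). For P4HA2 the rise was 1.27-fold (TGF-alpha, adjusted p = 0.014), and that call was lost without untreated replicate 2 or TGF-alpha replicate 2 (adjusted p = 0.06 and 0.069).

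ANGPTL4 encodes a secreted inhibitor of lipoprotein lipase. Probe set 8025402 read 5.57, 5.79 and 5.71 in untreated cells, 5.71, 5.86 and 5.90 with AP1510, 6.93, 6.49 and 6.58 with TGF-alpha and 5.54, 5.79 and 5.82 with heregulin. The TGF-alpha arrays stood alone, and the other 3 groups overlapped one another. ANGPTL4 rose 1.97-fold (log2 change 0.98 ± 0.12 SE, adjusted p = 8.9e-06) and stood 1.94-fold above heregulin (adjusted p = 1.6e-05) and 1.80-fold above AP1510 (adjusted p = 6e-05). For VEGFA, the angiogenic growth factor gene, the rise with TGF-alpha was 1.29-fold (adjusted p = 0.021). That call was lost without TGF-alpha replicate 1 or 3 or untreated replicate 3 (adjusted p = 0.073 to 0.098), and the difference from AP1510 of 0.36 ± 0.11 (adjusted p = 0.028) was lost without AP1510 replicate 1 or 2 or TGF-alpha replicate 1 or 3 (adjusted p = 0.081 to 0.12).

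ADM, which encodes the vasodilator peptide adrenomedullin, was the one member placed above all 3 other groups by heregulin, where 1.13% of all genes were. It read 7.30, 7.29 and 7.24 in untreated cells, 7.36, 7.25 and 7.45 with AP1510, 7.09, 7.48 and 7.25 with TGF-alpha and 7.69, 7.68 and 7.90 with heregulin. The heregulin arrays lay above the other 9. ADM rose 1.40-fold with heregulin (log2 change 0.48 ± 0.10 SE, adjusted p = 0.0072) and was not called with TGF-alpha (adjusted p = 1), and the 2 ligands differed by 0.48 ± 0.10 (adjusted p = 0.0026). Against AP1510 heregulin was higher by 0.40 ± 0.10 (adjusted p = 0.026), a call lost without AP1510 replicate 1 or 2 or heregulin replicate 3 (adjusted p = 0.055 to 0.11), and with arrays centred on their medians or those 2 groups fitted alone (adjusted p up to 0.061).

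Of the oxygen sensors, EGLN1 changed by at most 0.07 in size against untreated with any ligand and was called in no comparison. EGLN3 changed by 0.35 ± 0.13 with heregulin (adjusted p = 0.11), and without heregulin replicate 1 by 0.49 (adjusted p = 0.021), when heregulin also differed from AP1510 (adjusted p = 0.031) and TGF-alpha (adjusted p = 0.02). With all 12 arrays no comparison called EGLN3, BNIP3L, ANKRD37 or NDRG1, a stress-responsive gene induced by low oxygen. BNIP3L was higher with TGF-alpha than with AP1510 without TGF-alpha replicate 3 or heregulin replicate 2 (adjusted p = 0.027 and 0.041). HIF1A RNA changed by 0.03 ± 0.09 with TGF-alpha (adjusted p = 0.86), by -0.24 ± 0.09 with AP1510 (adjusted p = 0.26) and by -0.27 ± 0.09 with heregulin (adjusted p = 0.077). It was higher with TGF-alpha than with AP1510 by 0.27 ± 0.09 (adjusted p = 0.037) and lower with heregulin than with TGF-alpha by 0.30 ± 0.09 (adjusted p = 0.022). The first was lost in 5 of 12 leave-one-out refits (AP1510 replicate 2 or 3, or any TGF-alpha array; adjusted p = 0.072 to 0.11), after renewed quantile normalization and after centring arrays on their medians (adjusted p up to 0.07), and the second in 4 (TGF-alpha replicate 1 or 3, or heregulin replicate 2 or 3; adjusted p = 0.055 to 0.082) and in the fit of those 2 groups alone (adjusted p = 0.059). HIF-1alpha is controlled mainly as a protein, which arrays do not measure.

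Related members moved by unequal amounts. For 12 measured pairs, the within-array log2 difference between relatives was compared among the 4 groups with an exact permutation test, whose smallest possible p is 6.5e-05, and 9 pairs passed after adjustment over the 12. Such a difference compares changes, not levels. Each p-value of a pair is for any difference among the 4 groups, not for the change with a given ligand. With TGF-alpha, PFKP rose by 1.62 more than PFKL on the log2 scale and by 1.36 more than PFKM. Over the 4 groups these pairs had adjusted p = 5.8e-04 and 6.2e-04 (exact permutation). PFKFB4 moved by 1.52 above PFKFB3, and by 0.73 with heregulin and 0.32 with AP1510 (exact permutation, adjusted p = 5.8e-04). With TGF-alpha, ALDOC moved by 1.23 above ALDOA and HK2 by 0.73 above HK1 (adjusted p = 0.0029 for each pair over the 4 groups, exact).

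The same held among kinases and hypoxia genes. PDK3 moved below PDK1 with AP1510 (-0.64) and TGF-alpha (-0.91) more than with heregulin (-0.15; adjusted p = 5.8e-04 over the 4 groups, exact). BNIP3L, the close relative of BNIP3, moved below it by -1.21 with TGF-alpha, -0.78 with heregulin and -0.53 with AP1510 (adjusted p = 5.8e-04, exact). P4HA2 moved below P4HA1 by -0.83 with TGF-alpha (adjusted p = 0.0019 over the 4 groups, exact). LDHB against LDHA also passed, with 0.15 for TGF-alpha and -0.20 for heregulin (adjusted p = 0.028, exact), but was lost in 8 of 12 refits that left out 1 array (adjusted p up to 0.068). The pairs ENO2 and ENO1 (adjusted p = 0.19, exact), SLC2A3 and SLC2A1 and EGLN3 and EGLN1 (adjusted p = 0.11 each, exact) did not pass. ENO2 and SLC2A3 were dim, with means of 4.53 and 3.39, which limits what their pairs can show.

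**Figure D3:**
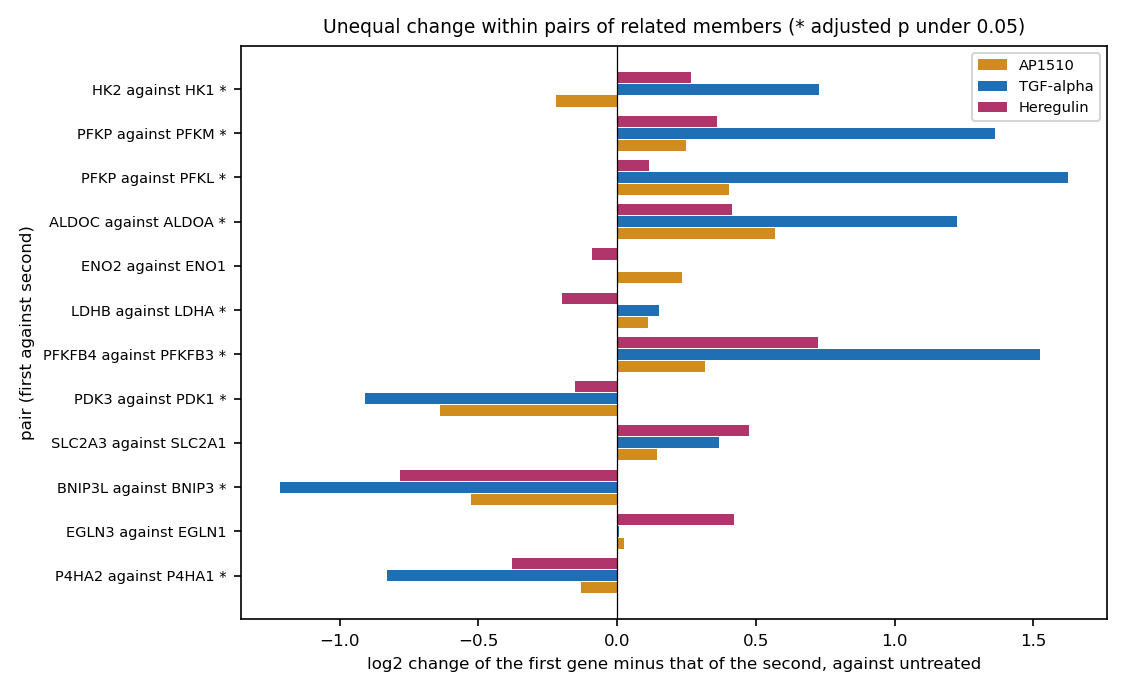
Difference between the log2 changes of 2 related members against untreated (x axis, first minus second) for 12 pairs (y axis), with bars for AP1510, TGF-alpha and heregulin, each from means of 3 arrays. Starred pairs differed among the 4 groups by the exact permutation test; for PFKP against PFKL the TGF-alpha bar reaches 1.62 and the heregulin bar 0.12.

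Between ligands, TGF-alpha stood apart from both others. Against AP1510, 16 members were higher and 2 lower with TGF-alpha, where 21.6% of all genes were called (11.2% higher and 10.4% lower). Against TGF-alpha, 1 member was higher with heregulin (ADM) and 13 were lower, where 21.6% of all genes were called (9.88% higher and 11.8% lower). With genes of a mean under 5 left out, TGF-alpha differed from AP1510 in 20 of 33 members, beside 33.6% of genes. Heregulin then differed from TGF-alpha in 16 of 33, beside 33.1%. Heregulin and AP1510 differed in 4 members, with HK2, PDK3 and ADM higher and SLC2A1 lower with heregulin, where 3.27% of all genes were higher and 3.95% lower. With each array centred on its median the split was 1 higher and 2 lower, beside 7.14% of all genes called. After renewed quantile normalization it was 3 higher and 2 lower, beside 7.93%. With genes of a mean under 5 left out it was also 3 higher and 2 lower, beside 11.4%.

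Other genes of these pathways, grouped by function, were read in the same fit. Over all genes 26% were called with TGF-alpha, 8.5% with heregulin and 1.47% with AP1510, the shares printed beside the counts of each list. They depend on how many dim genes are counted. With genes of a mean under 5 left out they were 39.2%, 13.5% and 2.72%. The lists were not recounted in that setting, so a list share near 40% with TGF-alpha does not show an excess. With TGF-alpha, of 23 other glycolysis and gluconeogenesis genes, 2 rose and 3 fell (21.7% called), no larger a share than over all genes. PC, pyruvate carboxylase, had a log2 change of -1.50 ± 0.08 (adjusted p = 3.3e-09), BPGM, which makes 2,3-bisphosphoglycerate, -0.91 ± 0.09, and FBP1, the gluconeogenic fructose bisphosphatase, -0.58 ± 0.12. PCK2, mitochondrial PEP carboxykinase, and MPC1, a subunit of the mitochondrial pyruvate carrier, rose by 0.59 ± 0.11 and 0.53 ± 0.09. With AP1510, 1 rose (MPC1, 0.47) and 1 fell (PC, -0.56), and with heregulin 1 rose (ADPGK, 0.35) and 3 fell (FBP1, -0.48, PC, -0.39, and MPC2, -0.38).

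Of 22 pyruvate dehydrogenase and TCA cycle genes, 3 rose and 6 fell with TGF-alpha (40.9% called, beside 26% of all genes), and the largest falls were at the switch that PDK1 also serves. PDK4 had a log2 change of -1.56 ± 0.10 (adjusted p = 1.2e-08), PDK2 -1.40 ± 0.13 and the opposing phosphatase gene PDP1 -1.08 ± 0.15, while DLAT, IDH3B and CS rose by 0.41, 0.31 and 0.30. PDK1 rose in the arrays in which its relatives PDK2 and PDK4 fell. With AP1510, 0 rose and 2 fell (PDK4, -0.84, and PDP1, -0.65). With heregulin, 0 rose and 4 fell (PDP1, -0.85, PDK2, -0.54, DLD, -0.48, and IDH3G, -0.28). Among 8 pentose phosphate genes (25% called with TGF-alpha, near the share of all genes), PRPS1 and PRPS2, which make the ribose donor of nucleotides, rose by 1.09 and 0.75 with TGF-alpha, and 0 passed with AP1510 or heregulin in limma's fit.

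Of 12 other glucose and monocarboxylate transporter genes, 0 rose and 5 fell with TGF-alpha (41.7% called, beside 26% of all genes), led by SLC2A12 (-1.37 ± 0.16), SLC16A7 (-1.19 ± 0.09) and SLC16A4 (-0.66 ± 0.14). SLC2A12 also fell with heregulin (-1.70 ± 0.16, adjusted p = 2.8e-06), the 1 call there, and SLC16A7 with AP1510 (-0.49, adjusted p = 0.011), the 1 call there. Of 12 HIF pathway components, 0 rose and 5 fell with TGF-alpha (41.7% called). CITED2, which competes with HIF-1alpha for its co-activators, changed by -1.50 ± 0.09 (adjusted p = 7.3e-09), EPAS1, which encodes HIF-2alpha, by -0.88 ± 0.08 and CITED4 by -0.59 ± 0.11. With heregulin CITED4 (-0.57) and CITED2 (-0.33) fell and 0 rose, and with AP1510 0 of 12 passed.

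Of 37 other hypoxia-responsive genes, 9 rose and 9 fell with TGF-alpha (48.6% called, beside 26% of all genes). With heregulin 8 rose and 6 fell (37.8%, beside 8.5%), and with AP1510 1 rose (2.7%, beside 1.47%). CXCR4, STC2 and LOX rose most with TGF-alpha (2.68 ± 0.16, 1.67 ± 0.14 and 1.49 ± 0.21), and IGFBP3, EFNA1 and STC1 fell most (-2.52 ± 0.19, -1.33 ± 0.10 and -1.17 ± 0.18). LOX, which cross-links collagen, CA12, a carbonic anhydrase, and LOXL2 rose most with heregulin (2.15 ± 0.21, 1.15 ± 0.13 and 0.83 ± 0.12), and LOX was the gene that rose with AP1510 (1.12 ± 0.21, adjusted p = 0.011). IGFBP3, PPP1R3C and INSIG2 fell most with heregulin (-1.17, -0.98 and -0.84). Of 12 MYC and glucose-sensing regulators, 0 rose and 3 fell with TGF-alpha (25% called, near the 26% of all genes): ARRDC4 (-1.45 ± 0.13) and TXNIP (-1.24 ± 0.11), both arrestins that restrain glucose uptake, and MXD1 (-0.84 ± 0.12). With heregulin 1 rose (MYC, 0.33) and 2 fell (ARRDC4, -0.99, and TXNIP, -0.51), and with AP1510 TXNIP fell (-0.65). TXNIP and ARRDC4 fell in the arrays of both natural ligands in which SLC2A1 was also lower.

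**Figure D4:**
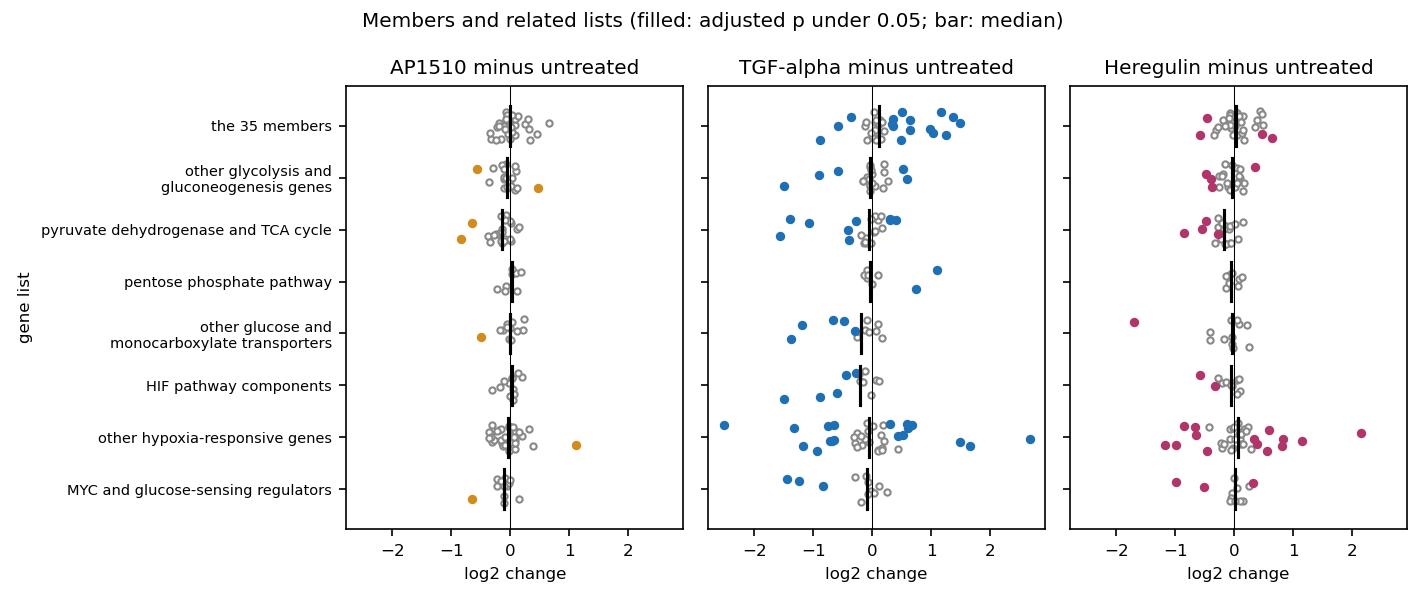
Log2 change against untreated (x axis) of the 35 members and of 7 lists of other genes of these pathways (y axis), in 3 panels for AP1510, TGF-alpha and heregulin. Each point is a gene, filled where its adjusted p was under 0.05, and the black bar is the list's median, which lies at 0.12 for the members and -0.21 for the HIF pathway components with TGF-alpha.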

How the data were processed

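Total RNA of 12 samples, 3 in each of 4 groups taken from the treatment label, was biotin-labelled and hybridised to Affymetrix arrays. The authors deposited log2 intensities per probe set made with RMA, per the submitters' processing notes, which give no version. RMA corrects background, equalises the arrays' distributions and summarises probes, so a shift shared by all genes is not seen. Of 33297 probe sets, 19460 named 1 gene, 1754 several and 12083 none in the annotation used here. Symbols were updated through Entrez IDs (19429 matched), and 18417 genes were tested. limma 3.58.1 in R 4.3.3 was fitted with 1 mean per group on all 12 arrays (8 residual degrees of freedom, 7.55 prior), two-sided, with Benjamini-Hochberg adjustment over all genes within each comparison, and it was tested on simulated data. Errors in the text are standard errors unless called SD. The number of arrays limits the precision, and no batch is given in the labels.

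Members and lists were chosen with earlier results of these data known. Array values are printed for members past the F test with a called change of at least 1.5-fold, and for SLC2A1, ADM and PDK3, chosen after their values were seen. From each other list, up to 3 rises and 3 falls are named by size. Paralogue pairs were compared by exact enumeration of 15400 partitions of the arrays. Promoter letters came from RefSeq for GRCh38.p14. Alternatives covered dim genes (mean under 5), scaling, probe sets, variance model, array weights, fits of 2 groups and leaving out each array.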

Additional observations from a re-analysis of the deposited data

How the results depend on the processing

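Of 56 called results of members in the 6 comparisons, 44 kept their call under every setting tried, 12 lost it in at least 1 refit without 1 array, 6 in another setting, and 0 changed sign. Leaving out 1 array in turn gave 0 to 1 members called for AP1510 against untreated, 14 to 16 for TGF-alpha and 4 to 6 for heregulin against untreated. Over all genes the shares called were 0.516% to 1.78%, 21.6% to 28.1% and 5.64% to 8.7%. The same refits gave 14 to 20 members for TGF-alpha against AP1510 (17.2% to 23.6% of all genes) and 1 to 6 for heregulin against AP1510 (4.44% to 7.18%). They gave 13 to 16 for heregulin against TGF-alpha (17.1% to 21.7%) and 18 to 22 for the F test (23.2% to 29.4%). Of the paralogue pairs, 8 to 10 passed.

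The count for AP1510 against untreated, 0 as reported, became 1 with dim genes left out, with arrays centred on their medians or with only these 2 groups fitted, each time ALDOC. The share of all genes fitted, 1.47% as reported, was 2.72%, 1.41% and 1.05% in these settings. The count became 2 with limma's trended and robust variance (ALDOC and ENO1) and 2 with array weights (ALDOC and PDK3), beside 2.19% and 1.94% of all genes. The count for heregulin against untreated went from 4 to 8 with the trended and robust variance and to 12 with array weights. Over all genes the share called went from 8.5% to 9.71% and 16.3%. The array weights gave heregulin replicate 3 a weight of 4.62 and heregulin replicate 2 a weight of 0.32. Heregulin against AP1510 went from 4 to 7 with the trended and robust variance, to 9 with array weights and to 1 with only the 2 groups fitted. The share of all genes went from 7.23% to 8.57%, 13.3% and 4.03%. Adding PGAM1 from its shared probe sets, chosen after seeing the data, made the TGF-alpha count 17 of 36, beside 26% of all genes. The cause of these shifts was not tested. No paired analysis was possible because the labels give each array a number of its own. With 3 arrays per group, changes of members with AP1510 up to 1.98-fold lay within the 95% intervals of results that did not pass.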
